A study of Mus musculus with 30 samples.

Results

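The 8 genes described here encode ligands and enzymes with which a cell can restrain immune cells: Cd274 (PD-L1), Pdcd1lg2 (PD-L2), Cd276 (B7-H3), Pvr (CD155), Nectin2 (CD112), Lgals9 (galectin-9), Nt5e (CD73) and Cd47. They were chosen by name, as a list of checkpoint and inhibitory ligand genes, out of 54532 features in the count files. Of the 8 genes, 7 passed the filter on low counts and entered the tests. Pdcd1lg2 did not pass, and its values are given without a test.

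The messenger RNA came from YUMM1.7 cells, a mouse melanoma line of C57BL/6 origin, grown as tumours under the skin and sorted as live GFP-positive cells after a CD45 stain. The tumours were grown from 5 clones named 2646TN, 2646R, 14559TN, 14559R and 13TN, which were isolated with the CaTCH barcode system, so each clone is a single line and not a sample of lines. The word Depleted stands in the titles of the 13TN tumours, and what TN and R abbreviate is not given. Each clone was left untreated or given RAFi/MEKi, a combination of RAF and MEK inhibitors whose agents, doses and duration the labels do not give, with 3 tumours per group, so there were 10 groups and 30 libraries. Every group carries the barcode and the GFP of the injected cells. The tumours of a group are numbered 1 to 3 only as names. Nothing in the labels says that the tumours of a group came from separate mice, so the p-values measure the spread between these tumours only.

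Checkpoint ligands sit on the surface of tumour or myeloid cells and bind receptors on lymphocytes and macrophages. PD-L1 and PD-L2 bind PD-1 on T cells, CD155 and CD112 bind the inhibitory receptor TIGIT and the activating receptor CD226, galectin-9 binds TIM-3, and CD47 binds SIRPα on macrophages and inhibits phagocytosis. CD73 acts as an enzyme, making the suppressive metabolite adenosine from the AMP that CD39 (Entpd1) leaves. In melanoma cells Cd274 is a well known target of interferon gamma through IRF1, and the RAF and MEK kinases drive the MAPK pathway on which cells with mutant Braf depend.

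Cd274 and Lgals9 both rose in 14559TN and 13TN, where many interferon-induced genes rose, so their upstream sequences are shown. Lgals9 also rose in 2646TN and 2646R. In each of these clones 2 of 25 tested genes of an interferon gamma response list rose, and 1 fell in 2646R. Of all tested genes 3.94% in 2646TN and 19.9% in 2646R were called in either direction. Of the 8 genes, 7 had an entry among the promoter sequences of RefSeq (GRCm38.p6), and the bases are given 5′ to 3′ on the strand of the gene, without bases that lie in an exon of that gene in the count files. Cd274 lies at chr19:29367455-29388095 on the plus strand and Lgals9 at chr11:78962974-78984946 on the minus strand of GRCm38. The printed stretches are chr19:29367188-29367437, plus strand, and chr11:78984947-78985174, minus strand. Capitals mark a match to a pair of interferon regulatory factor half-sites, GAAA and GAAA with any 2 bases between, searched on both strands.
Cd274: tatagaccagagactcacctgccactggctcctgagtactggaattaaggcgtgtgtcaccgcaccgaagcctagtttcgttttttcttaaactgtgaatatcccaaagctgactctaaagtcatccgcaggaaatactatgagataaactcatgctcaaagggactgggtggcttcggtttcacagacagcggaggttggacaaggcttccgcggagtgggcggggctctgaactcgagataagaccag
Lgals9: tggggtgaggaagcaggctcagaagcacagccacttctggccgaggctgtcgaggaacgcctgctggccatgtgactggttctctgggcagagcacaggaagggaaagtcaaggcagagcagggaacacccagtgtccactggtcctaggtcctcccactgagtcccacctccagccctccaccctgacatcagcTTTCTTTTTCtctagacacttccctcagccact

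In the 250 bases before its start Lgals9 held this motif on the opposite strand, at positions -55 to -46 from the RefSeq start. The motif was present in 2.98% of 32851 mouse promoter entries of that length. Neither this pair nor a gamma-activated site (TTCNNNGAA, in 7.02% of entries), an AP-1 site (TGANTCA, in 6.75%) or a hypoxia core (ACGTG, in 16.6%) was in the 250 bases of Cd274, Pdcd1lg2, Cd276, Nectin2 or Nt5e. For Cd276 and Nt5e these bases lie wholly within an exon of the gene in the count files, and the Cd276 entry starts at no start of a transcript there, so they say nothing of a promoter. Cd47 held ACGTG. A match is only a run of letters, and the absence of one says nothing of sites elsewhere.

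Libraries held 3022801 to 5278453 counts, with a median of 4042893, made from the 3′ ends of transcripts. Levels are CPM, counts scaled to the library total and adjusted with TMM factors, given as mean ± SD over 3 tumours, and, since they are not scaled by length, levels of the members are not ranked against each other. Where a marker sum is said to rest on 1 gene, its share of the counts is meant. All libraries showed at least 12.0 CPM of Mitf and 436 CPM of Sox9. Of 18 melanocyte and neural crest markers, however, only 5 passed the filter on low counts. These were Mitf, Sox9, Axl, S100b and Sox10, the last with a median of 0.307 CPM. Tyr, Tyrp1, Dct, Oca2 and Gpr143 had no count in any library. Ptprc, which encodes CD45, lay between 0 and 6.80 CPM.

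**Figure D1:**
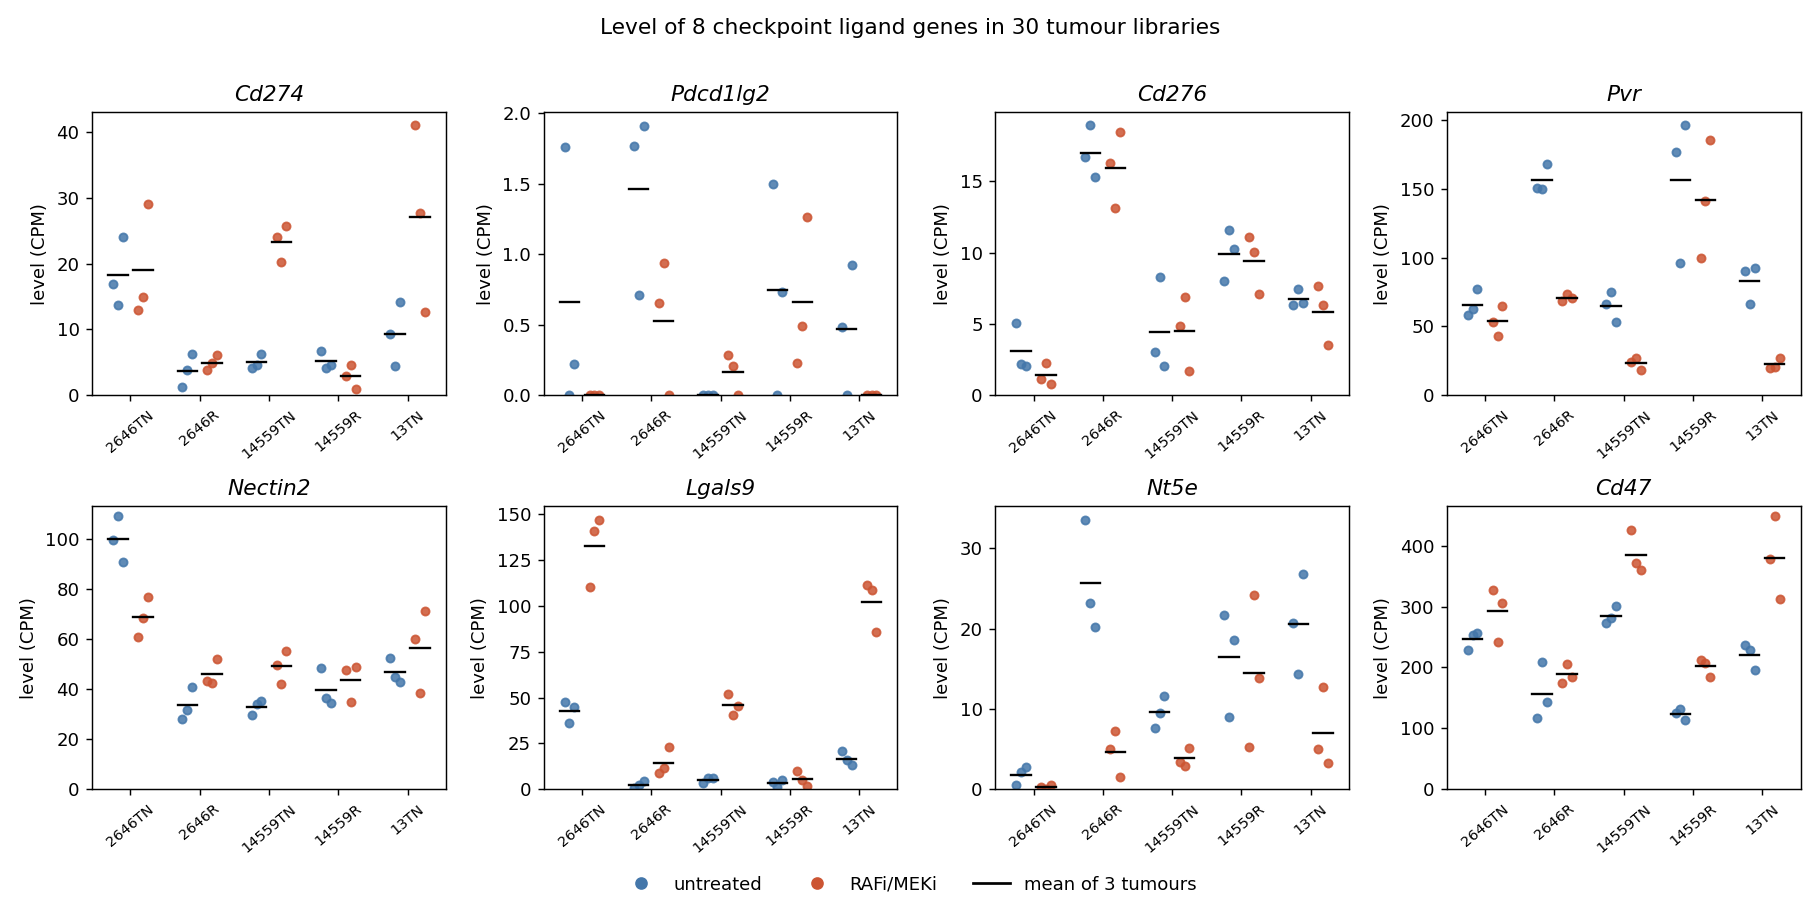
Level of the 8 genes in each of the 30 libraries, in CPM on a linear axis that starts at 0 and differs between panels; points are single tumours (blue untreated, orange RAFi/MEKi) and black bars are means of 3 tumours. Lgals9 is higher under RAFi/MEKi in 2646TN, 2646R, 14559TN and 13TN with no overlap of the groups, while Cd274 separates without overlap only in 14559TN.

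With RAFi/MEKi, Lgals9 rose in 4 of the 5 clones, Cd47 in 3 and Cd274 in 2, while Pvr fell in 3 and Nt5e in 2, at an adjusted p under 0.05 over the 13286 genes tested in each comparison (edgeR quasi-likelihood test, Benjamini-Hochberg adjustment). Nectin2 rose in 1 clone and Cd276 passed in none. By clone, 5 of the 7 tested genes passed in 13TN, where 31.0% of all tested genes did, and 5 in 14559TN, where 28.4% did. In 2646R 3 passed, against a background of 19.9%, in 2646TN 1, against 3.94%, and in 14559R 1, against 0.196%. In the mean over the 5 clones Cd274, Lgals9 and Cd47 rose and Pvr and Nt5e fell, which is 5 of 7 beside 38.4% of all genes. In bulk RNA, fewer cells that carry a transcript and less of it per cell cannot be told apart.

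**Figure D2:**
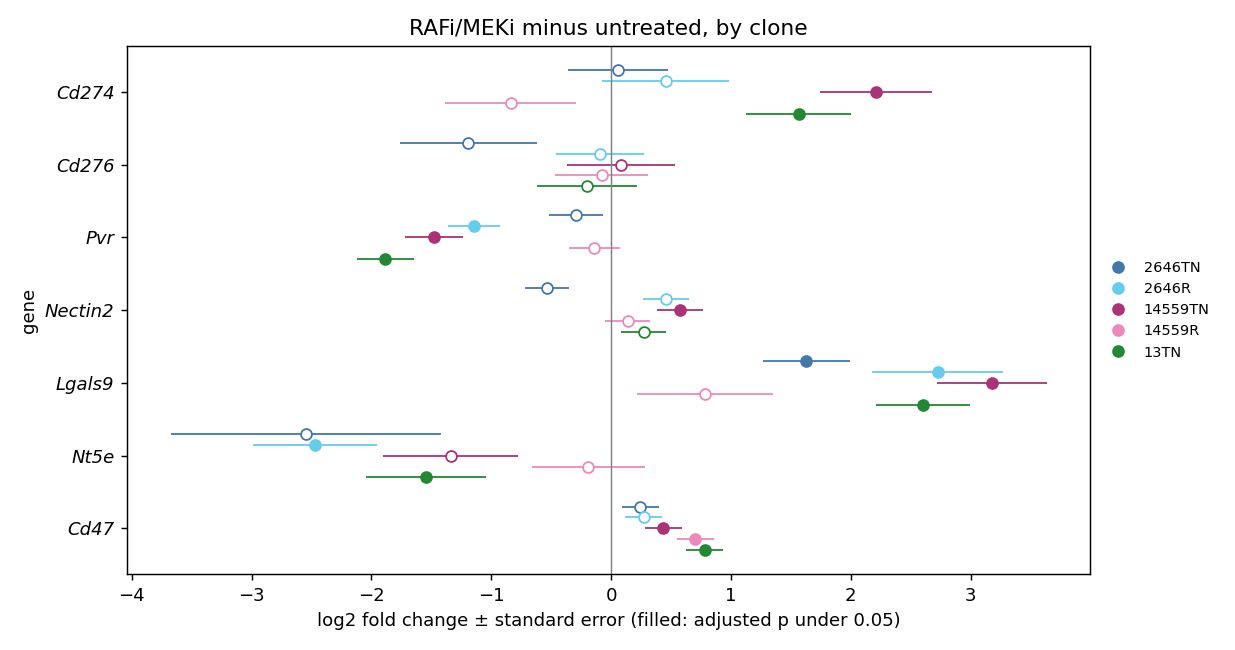
Log2 fold change of RAFi/MEKi against untreated tumours (horizontal axis) for the 7 tested genes and 5 clones; bars are standard errors and filled points have an adjusted p under 0.05. Lgals9 lies right of 0 in every clone and is filled in 4, and Pvr lies left of 0 in every clone and is filled in 3.

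Cd274 encodes PD-L1, the main ligand of PD-1. In 14559TN it stood at 4.06, 4.61 and 6.30 CPM in the untreated tumours and at 24.1, 20.3 and 25.7 CPM in the treated ones. Every treated tumour of this clone was above every untreated one, and the log2 fold change was 2.21 ± 0.47 (SE, adjusted p = 0.000623). In 13TN it stood at 9.25, 4.46 and 14.2 CPM untreated and at 41.0, 27.7 and 12.6 CPM treated. The groups overlapped here, because treated tumour 3 lay below the highest untreated tumour, and the change was 1.56 ± 0.44 (adjusted p = 0.00668). Without treated tumour 1, the highest, it was 1.18 with an adjusted p of 0.0629.

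The other clones differed in where Cd274 started. In 2646TN it was already at 16.9, 13.7 and 24.0 CPM untreated and stood at 13.0, 14.9 and 29.0 CPM treated. These groups overlapped, with a log2 difference of 0.06 ± 0.42 (adjusted p = 0.976). In 2646R it was low in both states, at 1.18, 3.79 and 6.28 CPM untreated and at 3.91, 4.92 and 6.07 CPM treated (log2 difference 0.45 ± 0.53, adjusted p = 0.593). In 14559R it stood at 6.73, 4.16 and 4.64 CPM untreated and at 2.95, 4.64 and 1.01 CPM treated, the lowest group mean of the 10 (2.87 ± 1.82 CPM, n = 3). That difference of -0.84 ± 0.55 missed the threshold (adjusted p = 0.634). In order of group means, from 14559R treated up to 13TN treated (27.1 ± 14.2 CPM), each of the 9 pairs of neighbouring groups overlapped.

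The size of the Cd274 response differed among clones. The test of any difference among the 5 responses gave an adjusted p of 0.00688, where 28.8% of all genes passed. The response of 14559R was 3.05 ± 0.72 log2 units below that of 14559TN (adjusted p = 0.00502), a comparison in which 12.0% of all genes passed. The response of 2646TN was 2.15 ± 0.63 below that of 14559TN (adjusted p = 0.0198, background 14.1%). The latter missed the threshold without untreated tumour 3 of 2646TN (0.0640) and without untreated tumour 1 of 14559TN (0.0549). These comparisons share the 14559TN tumours. Between 14559TN and 13TN the difference was 0.65 ± 0.64 (adjusted p = 0.861), and none of the 7 genes passed where 0.444% of all genes did (edgeR; 0 also at an unadjusted p under 0.05 and 0 by DESeq2).

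Pdcd1lg2, the gene of the other PD-1 ligand, starts 43464 bases from the start of Cd274 on chromosome 19. It had 58 counts in all 30 libraries together, in 16 of them, and at most 9 in one. The highest group mean was 1.46 ± 0.656 CPM in untreated 2646R, and the highest library stood at 1.91 CPM. No count was seen in treated 2646TN, untreated 14559TN and treated 13TN, where a count of 0 allows up to 0.286, 0.266 and 0.246 CPM over the group, for counting error only. Untreated 2646R held 9, 3 and 7 counts in its 3 libraries, so it did not overlap with these groups, but the gene was below the filter and no difference was tested.

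Lgals9 encodes galectin-9, a lectin that binds TIM-3. It rose from 3.30, 5.84 and 6.05 CPM to 52.0, 40.3 and 45.4 CPM in 14559TN (log2 fold change 3.18 ± 0.46, adjusted p = 1.1e-05). In 13TN it rose from 20.9, 16.1 and 12.9 CPM to 111, 109 and 85.9 CPM (2.604 ± 0.39, adjusted p = 1.72e-05). In 2646R it rose from 0.393, 2.13 and 4.37 CPM to 8.68, 11.7 and 22.8 CPM (2.73 ± 0.55, adjusted p = 0.000945). In each of these clones the treated tumours all lay above the untreated ones. The untreated 2646TN tumours already held 47.4, 36.2 and 44.7 CPM, about the level of treated 14559TN, and the treated ones 110.1, 141 and 147 CPM. That rise was 1.63 ± 0.36 on the log2 scale (adjusted p = 0.0102) and missed the threshold without untreated tumour 2 (0.0645).

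In 14559R Lgals9 stood at 3.99, 0.925 and 5.13 CPM untreated and at 9.98, 5.13 and 1.77 CPM treated, groups that overlapped (0.78 ± 0.57, adjusted p = 0.686). The 14559R response was 2.40 ± 0.75 log2 units smaller than that of 14559TN (adjusted p = 0.0381). This difference missed the threshold when any 1 of 9 of the 12 libraries was left out (adjusted p 0.0538 to 0.172), namely untreated 14559TN tumours 1, 2 and 3, treated 14559TN tumours 1 and 3, untreated 14559R tumours 1 and 3 and treated 14559R tumours 2 and 3. Over the 10 groups, Lgals9 spanned 57.8-fold between its lowest mean, in untreated 2646R, and its highest, in treated 2646TN. Untreated 13TN and untreated 2646TN were separate neighbours in that order, as were treated 14559TN and treated 13TN. The other 7 pairs of neighbours overlapped.

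Cd276 encodes B7-H3, a B7 family protein with no settled receptor, and its level differed among the untreated clones (adjusted p = 5.08e-05), while no response passed the threshold. The 2646R tumours held 16.7, 18.9 and 15.3 CPM untreated and 16.3, 13.1 and 18.5 CPM treated. The 2646TN tumours held 5.04, 2.18 and 2.02 CPM untreated and 1.13, 2.27 and 0.757 CPM treated. All 6 libraries of 2646R lay above all libraries of the other clones. The 14559R means were 9.93 ± 1.81 and 9.40 ± 2.09 CPM (n = 3 each), those of 13TN 6.74 ± 0.607 and 5.85 ± 2.12 CPM, and those of 14559TN 4.45 ± 3.37 and 4.48 ± 2.61 CPM. The log2 response ranged from -1.19 ± 0.57 in 2646TN (adjusted p = 0.296) to 0.08 ± 0.45 in 14559TN (adjusted p = 0.916). Only the 2646TN value had an unadjusted p under 0.05 (0.0456, edgeR), and DESeq2 called none.

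Pvr encodes CD155, the stronger ligand of TIGIT. It fell in 14559TN from 65.99, 75.3 and 53.2 CPM to 24.4, 26.9 and 17.99 CPM (log2 fold change -1.48 ± 0.24, adjusted p = 2.43e-05). In 13TN it fell from 90.3, 66.5 and 92.3 CPM to 19.6, 20.6 and 27.2 CPM (-1.89 ± 0.24, adjusted p = 4.62e-07). In 2646R it fell from 151, 149.6 and 168 CPM to 68.2, 73.3 and 70.6 CPM (-1.14 ± 0.22, adjusted p = 0.000399). In these 3 clones the treated and untreated tumours did not overlap. Treated 2646R, at about the level of untreated 2646TN, remained well above treated 14559TN and 13TN.

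In 2646TN Pvr stood at 57.9, 62.6 and 76.9 CPM untreated and at 53.1, 42.8 and 64.9 CPM treated, groups that overlapped (-0.29 ± 0.23, adjusted p = 0.596). In 14559R it stood at 177, 95.7 and 197 CPM untreated and at 99.998, 141 and 185 CPM treated, with wide spread in both (-0.14 ± 0.21, adjusted p = 0.879). The responses differed among the 5 clones (adjusted p = 0.000243). That of 14559R was 1.34 ± 0.32 log2 units above that of 14559TN (adjusted p = 0.00561), a call that was lost when only the 4 groups compared entered the fit (0.0607). That of 2646TN was 1.18 ± 0.33 above that of 14559TN (adjusted p = 0.0144), and it missed the threshold without treated tumour 3 of 14559TN (0.0519) or of 2646TN (0.0507).

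Nectin2 encodes CD112, which binds TIGIT, CD226 and PVRIG. It lies on the minus strand of chromosome 7, as Pvr does, and the lowest coordinates of the genes are 186934 bases apart. It did not follow Pvr. In 14559TN it stood at 29.4, 34.1 and 35.0 CPM untreated and at 49.7, 42.2 and 55.4 CPM treated, a rise of 0.58 ± 0.19 on the log2 scale (adjusted p = 0.0241) with no overlap. That call was lost without untreated tumour 1 (0.0914), treated tumour 1 (0.0535) or treated tumour 3 (0.0929). Untreated 2646TN had the highest mean of the 10 groups, with tumours at 99.5, 109 and 90.8 CPM, and the treated tumours of that clone stood lower, at 61.0, 68.5 and 76.7 CPM, without overlap. The 2646TN difference of -0.54 ± 0.18 nevertheless missed the threshold (adjusted p = 0.0963).

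In 2646R the Nectin2 difference was 0.46 ± 0.19 (adjusted p = 0.0856; 0.0253 without untreated tumour 3), in 13TN 0.27 ± 0.19 (0.279; 0.0396 without treated tumour 2) and in 14559R 0.14 ± 0.19 (0.860). The responses differed among clones (adjusted p = 0.0101). That of 2646TN was 1.11 ± 0.27 log2 units below that of 14559TN (adjusted p = 0.00401). That of 2646R was 1.00 ± 0.27 above that of 2646TN (adjusted p = 0.0255), and Nectin2 was the only tested member to pass in that comparison, where 4.15% of all genes did. It did not pass there without untreated tumour 2 of 2646TN (0.0516), treated tumour 1 of 2646TN (0.0561), untreated tumour 1 of 2646R (0.0815) or treated tumour 3 of 2646R (0.0581).

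Nt5e encodes CD73. In 2646R it fell from 33.6, 23.2 and 20.2 CPM to 4.99, 7.26 and 1.52 CPM (log2 fold change -2.47 ± 0.52, adjusted p = 0.00109), without overlap. In 13TN it fell from 20.7, 14.4 and 26.8 CPM to 4.96, 12.7 and 3.27 CPM (-1.54 ± 0.50, adjusted p = 0.0190). The 13TN groups did not overlap either, but the call was lost without untreated tumour 3 (0.0903), treated tumour 1 (0.0981) or treated tumour 3 (0.0970). In 14559TN the tumours held 7.61, 9.53 and 11.6 CPM untreated and 3.41, 2.92 and 5.14 CPM treated. These groups were separate, but the difference of -1.34 ± 0.56 missed the threshold (adjusted p = 0.0770); it passed with no low-count filter (0.00482) and with only the 2 groups in the fit (0.00599).

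Nt5e was scarce in 2646TN, with 21 counts over the 3 untreated libraries and 3 over the treated ones. The ratio was 6.84, with a 95.0% counting interval of 2.34 to 33.2. That interval uses exact Poisson limits of the lower count and leaves out the error of the higher count. The adjusted p there was 0.243, and 0.0242 with no low-count filter. In 14559R it stood at 21.7, 9.02 and 18.6 CPM untreated and at 5.22, 24.2 and 13.9 CPM treated, with the groups fully mixed (-0.19 ± 0.47, adjusted p = 0.934). The test of any difference among the 5 responses gave 0.101 for Nt5e, 0.0603 for Lgals9, 0.139 for Cd47 and 0.603 for Cd276.

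Cd47, which encodes the ligand of SIRPα, had small changes, each with a standard error of 0.15 or 0.16. In 13TN it rose from 237, 229 and 196 CPM to 377, 448 and 312 CPM (log2 fold change 0.78 ± 0.15, adjusted p = 0.000187). In 14559R it rose from 125, 132 and 114 CPM to 213, 207 and 185 CPM (0.70 ± 0.16, adjusted p = 0.0411), the 1 tested member that passed in this clone. In both clones the groups were separate. The 14559R call was lost with only its 2 groups in the fit (0.0952) and without untreated tumour 1 (0.173), 2 (0.0511) or 3 (0.188) or treated tumour 1 (0.163) or 2 (0.131). In that clone only 26 of 13286 genes passed at all.

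In 14559TN Cd47 rose from 274, 281 and 301 CPM to 426, 371 and 360.2 CPM (0.44 ± 0.15, adjusted p = 0.0304), again without overlap. The call was lost without untreated tumour 1 (0.0868), untreated tumour 2 (0.0711) or treated tumour 1 (0.120). In 2646TN it stood at 229, 254 and 256 CPM untreated and at 328, 242 and 306 CPM treated (0.25 ± 0.15, adjusted p = 0.468). In 2646R it stood at 116, 209 and 144 CPM untreated and at 175, 206 and 184 CPM treated (0.27 ± 0.15, adjusted p = 0.223). Untreated tumour 2 was the high one of that clone, and without it the difference was 0.59 (adjusted p = 0.00658).

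The R clones were compared with the TN clones of the same number. Among untreated tumours all 7 tested members differed between 2646R and 2646TN, beside 36.6% of all genes, and 3 between 14559R and 14559TN, beside 24.1%. Among treated tumours 6 differed between 2646R and 2646TN, beside 20.1%, and 6 between 14559R and 14559TN, beside 49.4%. In all 4 comparisons Cd276 was higher and Cd47 lower in the R clone. The 4 comparisons share no group, but each pair is 1 R clone and 1 TN clone, so the spread between clones is not covered.

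**Figure D3:**
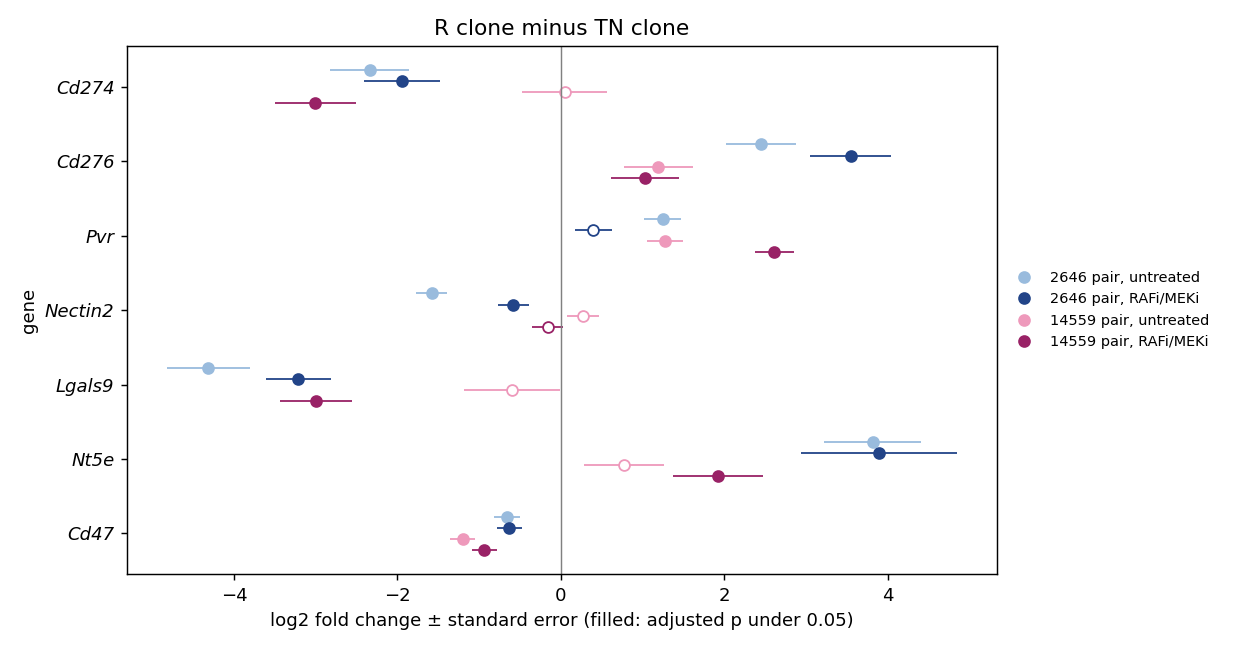
Log2 fold change of the R clone against the TN clone (horizontal axis) for the 7 tested genes in each pair and treatment; bars are standard errors and filled points have an adjusted p under 0.05. Cd276 is filled right of 0 and Cd47 filled left of 0 in all 4 comparisons, and Cd274 and Lgals9 are filled left of 0 in 3 of them.

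Cd47 was lower in 2646R than in 2646TN by -0.66 ± 0.15 (log2, adjusted p = 0.00115) untreated and by -0.63 ± 0.15 (0.00343) treated. Between 14559R and 14559TN it was lower by -1.20 ± 0.16 (7.37e-07) and -0.93 ± 0.15 (8.01e-06), all by edgeR. Cd276 was higher in 2646R by 2.45 ± 0.43 (adjusted p = 3.94e-05) untreated and 3.54 ± 0.50 (3.55e-06) treated. In 14559R it was higher by 1.19 ± 0.42 (0.0379) untreated and 1.03 ± 0.42 (0.0399) treated. Both 14559R calls were lost with only the groups compared in the fit (0.0539 and 0.0721). The untreated call was also lost without untreated tumour 1 (0.170) or 3 (0.222) of 14559TN or tumour 2 (0.103) or 3 (0.0816) of 14559R, and the treated call without treated tumour 1 (0.0804) or 3 (0.249) of 14559TN or tumour 1 (0.139) or 2 (0.0908) of 14559R.

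Cd274 and Lgals9 were lower in 2646R than in 2646TN in both states. For Cd274 the log2 difference was -2.34 ± 0.49 (adjusted p = 0.000392) untreated and -1.94 ± 0.47 (0.00349) treated, and for Lgals9 it was -4.31 ± 0.51 (6.94e-07) and -3.22 ± 0.40 (3.39e-06). Between 14559R and 14559TN the untreated tumours did not differ detectably in Cd274 (0.05 ± 0.52, adjusted p = 0.964) or Lgals9 (-0.60 ± 0.59, 0.504). Among treated tumours both were lower in 14559R, Cd274 by -3.00 ± 0.50 (1.32e-05) and Lgals9 by -3.00 ± 0.44 (5.9e-06).

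Pvr was higher in the untreated R clone of both pairs, by 1.24 ± 0.22 (adjusted p = 6.16e-05) in 2646R and 1.27 ± 0.22 (9.06e-05) in 14559R. Under treatment it was higher in 14559R by 2.61 ± 0.24 (6.87e-10), while the 2646R difference was 0.39 ± 0.23 (0.228). Nt5e was higher in untreated 2646R than in 2646TN by 3.82 ± 0.60 (1.5e-05) and in treated 14559R than in 14559TN by 1.92 ± 0.55 (0.00484; 0.0629 without treated tumour 2 of 14559R). Treated 2646R held 60 Nt5e counts against 3 in 2646TN, a ratio of 17.5 with a counting interval of 5.99 to 84.8 (adjusted p = 0.00459 by edgeR). The untreated 14559R difference in Nt5e was 0.77 ± 0.49 (0.273).

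Nectin2 was lower in 2646R, by -1.58 ± 0.19 (adjusted p = 1.11e-07) untreated and by -0.58 ± 0.19 (0.0253) treated. The treated call was lost without treated tumour 2 (0.0572) or 3 (0.128) of 2646TN or tumour 1 (0.0929) or 2 (0.109) of 2646R. Between 14559R and 14559TN its differences were 0.28 ± 0.19 (0.325) untreated and -0.16 ± 0.19 (0.497) treated.

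The untreated TN clones also differed among themselves. Against 14559TN, 2646TN was higher in Cd274 (log2 difference 1.87 ± 0.47, adjusted p = 0.00508), Lgals9 (3.08 ± 0.46, 2.62e-05) and Nectin2 (1.601 ± 0.19, 1.6e-07) and lower in Nt5e (-2.39 ± 0.63, 0.00719), so 4 of 7 passed beside 18.9% of all genes. Against 13TN, 2646TN was higher in Nectin2 (1.09 ± 0.19, 7.78e-05) and Lgals9 (1.35 ± 0.39, 0.0192) and lower in Nt5e (-3.49 ± 0.60, 0.000146), 3 of 7 beside 16.2%. The Lgals9 call was lost without untreated tumour 1 (0.0675) or 3 (0.0631) of 2646TN or tumour 2 (0.0659) or 3 (0.103) of 13TN. Cd274 (1.00 ± 0.44, 0.127) did not pass there, but did with no low-count filter (0.0228) and with only the groups compared in the fit (0.0459). Cd276 (-1.12 ± 0.45, 0.0906) passed only without untreated tumour 1 of 2646TN (0.0370). Between 14559TN and 13TN only Lgals9 passed, lower in 14559TN (-1.73 ± 0.48, 0.0198), beside 11.2%. That call was lost without untreated tumour 1 (0.110) or 2 (0.0514) of 14559TN or tumour 1 (0.0924) of 13TN. With only the groups compared in the fit, Nt5e (0.00969), Nectin2 (0.0382) and Cd47 (0.0222) passed too, and Nt5e also with no low-count filter (0.0170). The test of any difference among the 5 untreated clones passed for all 7 tested genes, beside 56.6% of all genes.

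More interferon genes rose in the clones in which Cd274 rose than in the others. Of 25 tested genes of an interferon gamma response list (guanylate-binding proteins, immunity-related GTPases, antigen processing and presentation, chemokines), 15 rose and none fell in 14559TN, beside 12.4% of all genes that rose, with a median log2 fold change of 2.12. In 13TN 18 rose and none fell, beside 13.6%, with a median of 1.87. In 2646TN 2 rose (median 0.90), beside 3.94% of all genes called in either direction. In 2646R 2 rose and 1 fell (median -0.28), beside 19.9% called. In 14559R none passed, nor had any an unadjusted p under 0.05 (median 0.11), beside 0.196% called. The medians over all tested genes in these 5 comparisons lay between -0.0025 and 0.012. Gbp4, a guanylate-binding protein, went from 11.9 ± 9.12 to 146 ± 15.8 CPM in 14559TN (3.59 ± 0.71, adjusted p = 0.000661) and from 18.8 ± 13.47 to 182 ± 95.5 CPM in 13TN (3.30 ± 0.69, 0.000897; n = 3 each, edgeR).

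The signalling genes between interferon receptors and Cd274 were counted apart. Of 19 tested, 10 rose and 2 fell in 14559TN, 9 rose and 1 fell in 13TN, 3 rose in 2646TN, 1 rose in 2646R and none passed in 14559R, where 3 had an unadjusted p under 0.05. Of all genes 12.4% rose in 14559TN and 13.6% in 13TN, and 3.94% in 2646TN and 19.9% in 2646R were called in either direction. The median log2 fold changes were 0.67, 0.51, 0.20, -0.09 and 0.19 in that order of clones. Irf1, the factor that acts on the Cd274 promoter, stood at 110.4, 90.0 and 143 CPM in untreated and at 291, 319 and 223 CPM in treated 14559TN tumours, which did not overlap (1.28 ± 0.28, adjusted p = 0.00141). In 13TN it went from 173, 150.3 and 242 CPM to 351, 518 and 336 CPM, also without overlap (1.09 ± 0.28, 0.00413). In 2646TN the Irf1 difference was 0.24 ± 0.27 (0.766), and its untreated tumours held 250.2 ± 48.1 CPM against 115 ± 26.8 CPM in untreated 14559TN (n = 3 each).

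The interferon gamma response list was also counted between R and TN clones. Among treated tumours 22 of the 25 interferon gamma response genes were lower in 2646R than in 2646TN (median -2.69), and 16 were lower in 14559R than in 14559TN (median -1.39), with none higher in either. Of all genes 10.1% and 22.7% were called lower in these comparisons. Among untreated tumours 12 were lower and 1 higher in 2646R (median -1.20, beside 18.4% of all genes lower), and 1 was higher in 14559R (median 0.22). Iigp1, an immunity-related GTPase, held 1366 ± 50.2 CPM in treated 2646TN and 79.9 ± 36.1 CPM in treated 2646R (-4.10 ± 0.67, adjusted p = 0.000187, edgeR, n = 3 each).

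**Figure D4:**
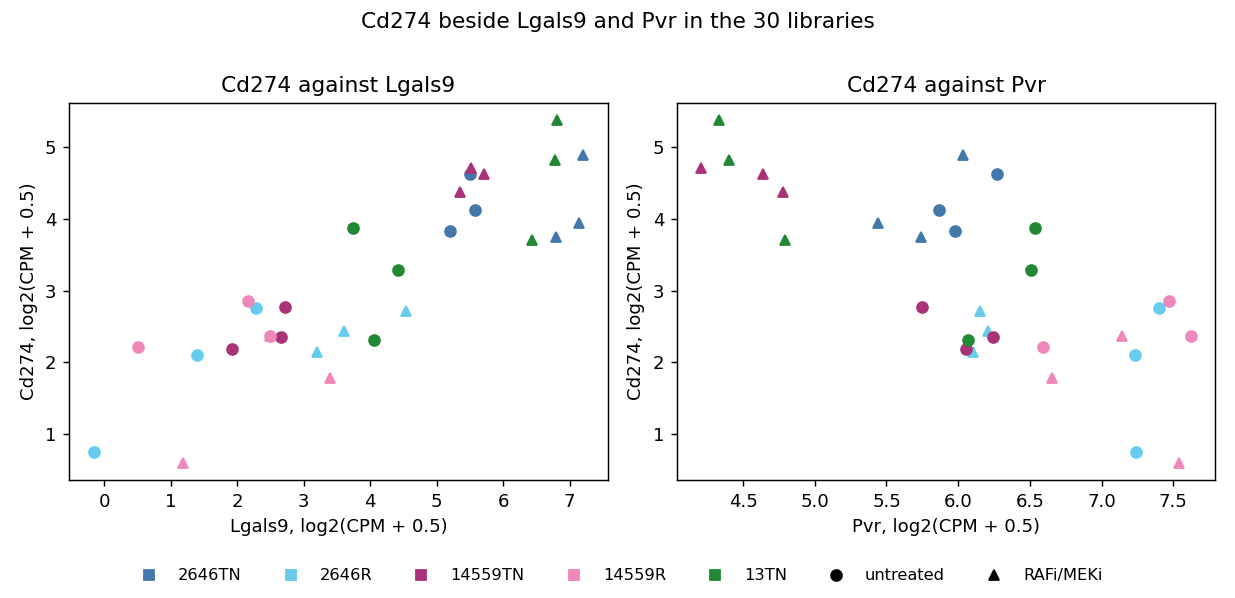
Cd274 against Lgals9 and Pvr in the 30 libraries, both axes as log2(CPM + 0.5); colours are clones, circles untreated and triangles RAFi/MEKi tumours. Cd274 is high where Lgals9 is high (treated 13TN and 14559TN, all 2646TN tumours) and low in the tumours with the most Pvr, which are untreated 2646R and both states of 14559R.

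Post-transcriptional regulators of PD-L1 and CD47 were tested as a list of 16. In the responses 4 fell in each of 2646R, 14559TN and 13TN, 1 fell in 2646TN, and none rose in any clone, beside 10.2%, 16.0%, 17.4% and 2.24% of all genes called lower. The medians ran from -0.30 in 13TN to -0.02 in 14559R. Qpct, a glutaminyl cyclase, fell from 8.88 ± 3.35 to 0.873 ± 0.255 CPM in 14559TN (-3.32 ± 0.57, adjusted p = 3.31e-05) and from 20.2 ± 8.86 to 3.45 ± 0.835 CPM in 13TN (-2.53 ± 0.44, 3.26e-05). In treated tumours it was higher in 14559R than in 14559TN (4.69 ± 0.54, 1.65e-08). Qpctl, the related cyclase known for modifying the end of CD47, was lower in treated 2646R than in treated 2646TN (-0.87 ± 0.30, 0.0365). Cmtm6, which keeps PD-L1 at the cell surface, passed in no response; the nearest was 13TN, at 12.9, 18.6 and 19.998 CPM untreated and 29.8, 36.3 and 21.9 CPM treated (0.78 ± 0.32, 0.0582).

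Nt5e was read beside 10 tested genes of the adenosine pathway, itself among them. Of these 4 rose and 2 fell in 2646R, 1 rose and 3 fell in 13TN, and 2 fell in 14559TN, where 19.9%, 31.0% and 28.4% of all genes were called in either direction. The shares in 13TN and 14559TN lie near that background. The median log2 fold change ran from -0.25 in 14559TN to 0.34 in 2646R. Entpd1, which encodes CD39 and acts one step before CD73, rose in 2646R from 0.771 ± 0.70 to 6.67 ± 2.30 CPM (3.19 ± 0.70, adjusted p = 0.00138), a clone in which Nt5e fell. In untreated tumours the pair was opposite between 2646R and 2646TN. Entpd1 stood at 34.2 ± 6.60 CPM in 2646TN and 0.771 ± 0.70 CPM in 2646R (-5.53 ± 0.65, 1.31e-07), and Nt5e at 1.79 ± 1.15 and 25.7 ± 7.02 CPM. Enpp1, which makes AMP from ATP and other nucleotides, fell with Nt5e in 13TN (-2.47 ± 0.48, 0.000408) and fell in 14559TN (-2.15 ± 0.44, 0.000713), and was higher in untreated 2646R than in 2646TN (3.60 ± 0.59, 6.49e-05).

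Pvr and Nectin2 belong to the nectins and nectin-like genes, of which 9 of 11 were tested. In 14559TN 2 rose and 1 fell, in 13TN 1 rose and 2 fell, and in 2646R 2 fell, shares near the 28.4%, 31.0% and 19.9% of all genes called there. The median log2 fold change ran from -0.55 in 13TN to 0.11 in 2646R. Cadm1, a nectin-like adhesion molecule, rose in 13TN from 57.5 ± 12.7 to 197 ± 75.0 CPM (1.78 ± 0.36, adjusted p = 0.000554). It was lower in 2646R than in 2646TN untreated (-2.39 ± 0.38, 4.22e-05) and treated (-2.19 ± 0.37, 0.000168). Afdn, which ties nectins to actin, fell with Pvr in 2646R (-0.64 ± 0.15, 0.00255) and in 13TN (-0.55 ± 0.15, 0.00622).

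Other inhibitory ligands and enzymes were counted as a list. Of 24 genes 14 were tested, and 5 fell and 1 rose in 13TN, 3 fell and 2 rose in 14559TN, 4 fell and 2 rose in 2646R, 1 fell in 2646TN and none passed in 14559R, where 2 had an unadjusted p under 0.05. Of all genes 31.0%, 28.4%, 19.9%, 3.94% and 0.196% were called in either direction in these clones, in that order, so the counts in 13TN and 14559TN are not far from the background. The median log2 fold change ran from -0.64 in 13TN to 0.01 in 14559R. Lgals3, the galectin-3 gene and a ligand of LAG-3, fell in 2646R from 667 ± 45.3 to 81.8 ± 0.983 CPM (-3.03 ± 0.33, adjusted p = 1.21e-06), in contrast to Lgals9. It also fell in 14559TN (-1.68 ± 0.31, 0.000311) and 13TN (-2.29 ± 0.33, 1.28e-05). Tnfsf10, the death ligand TRAIL, rose in 14559TN (3.32 ± 0.61, 8.41e-05) and in 13TN (2.28 ± 0.51, 0.00074), where Cd274 rose. Cd200, a ligand of a myeloid inhibitory receptor, was higher in untreated 2646R than in 2646TN (25.9 ± 7.91 against 1.76 ± 0.932 CPM; 3.83 ± 0.47, 2.6e-07).

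Ligands that activate T cells were at low levels. Of 11 costimulatory ligand genes in the files 1 passed the filter, Cd80, with 0 to 3.91 CPM; it fell in 2646R and was higher in untreated 2646R than in 2646TN. Of 16 receptor genes of immune cells 1 passed, Sirpa, the receptor of CD47, with 14.6 to 63.5 CPM. Sirpa passed in no response and was lower in untreated 2646R than in 2646TN (21.0 ± 3.94 against 48.5 ± 15.4 CPM; -1.21 ± 0.28, adjusted p = 0.00112). Macrophages express Sirpa, and the sum of 15 macrophage and monocyte markers was 212 to 345 CPM in untreated 2646TN and 37.4 to 78.1 CPM in untreated 2646R; their part in the Sirpa difference was not tested.

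MAPK output genes, the targets of the pathway that the treatment inhibits, were counted beside Pvr. Of 15 tested genes 5 fell and 2 rose in 14559TN, 5 fell and 5 rose in 13TN, 4 fell and 1 rose in 2646R, 2 fell in 2646TN and none passed in 14559R, where 1 had an unadjusted p under 0.05. Of all genes 16.0% fell in 14559TN, 17.4% in 13TN, 10.2% in 2646R and 2.24% in 2646TN, while 12.4% rose in 14559TN and 13.6% in 13TN. The median log2 fold change ran from -0.28 in 14559TN to 0.10 in 14559R. Fosl1, an AP-1 subunit, fell in 14559TN from 47.8 ± 11.2 to 5.50 ± 1.88 CPM (-3.09 ± 0.39, adjusted p = 2.3e-06), in 13TN from 138 ± 73.0 to 13.8 ± 0.667 CPM (-3.31 ± 0.34, 9.09e-08) and in 2646R from 186 ± 36.8 to 88.6 ± 4.85 CPM (-1.07 ± 0.30, 0.0129). Those are the 3 clones in which Pvr fell. Fosl1 is 1 of the 15 genes, others of which rose in the same clones, and a link of the list to Pvr was not tested. Of 19 factors of the AP-1, NF-kappaB, Myc and Hif families 6 fell and 2 rose in 14559TN, 4 fell and 4 rose in 13TN, 4 fell in 2646R, 2 fell in 2646TN and none passed in 14559R, where 4 had an unadjusted p under 0.05, beside the same shares of all genes that fell.

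The genes most like each member were taken as the 3 with the highest Pearson r in log2 CPM over the 30 libraries, which share clones, treatments and depth, so r describes these libraries only. For Cd274 they were Parp14 (0.929), Igtp (0.921) and Gbp7 (0.914), and for Lgals9 Parp10 (0.936), Ifi27l2a (0.936) and Oasl2 (0.932). For Pvr they were Eif4ebp1 (0.966), Uqcrq (0.962) and Mif (0.955), and for Cd47 Col4a5 (0.917), Tns1 (0.914) and Kmt2a (0.912). For Nt5e they were Ndst3 (0.887), Msi2 (0.877) and Gpt2 (0.868), for Nectin2 Entpd1 (0.858), Bcam (0.842) and Aldh1a7 (0.828), and for Cd276 Prag1 (0.821), Lrp12 (0.811) and Ano1 (0.804). Bcam is a near neighbour of Nectin2, 5648 bases away on chromosome 7. Its level was 0 to 4.54 CPM, with a median of 0.296 CPM, so its r rests on few counts. The medians of Aldh1a7 and Entpd1 were 1.04 and 2.52 CPM. By Spearman's rho Cd274 kept 2 of its 3 genes, Pvr none and each other tested member 1. By Pearson r of group means Lgals9 and Nt5e each kept 1. Cd274, Cd276, Pvr, Nectin2 and Cd47 kept none by that measure.

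Among the members the highest r was that of Cd274 with Lgals9, 0.87 over the 30 libraries (rho 0.84, and r 0.86 without the 2 libraries farthest from the median). Taken as deviations from the group means, the same pair had an r of 0.62, so tumours of 1 group that were high in one tended to be high in the other. Cd274 with Pvr had an r of -0.75, and 0.01 in the deviations. Pvr with Cd47 had an r of -0.86, and -0.16 in the deviations. Cd274 with Irf1 had 0.74, and 0.55 in the deviations, while Cd274 with Cmtm6 had -0.28. Cd274 with Ptprc, the CD45 gene, had 0.56, and 0.53 in the deviations, where Ptprc rested on few counts; the part of CD45-positive cells in the Cd274 level was not tested.

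Markers of other cells were read beside these results. The summed level of 15 macrophage and monocyte markers was 212 to 345 CPM in untreated 2646TN, the group with the highest untreated Cd274 and Lgals9, against 22.9 to 97.3 CPM in the other untreated groups. It was 41.6 to 113 CPM in treated 2646TN, where Lgals9 was higher and Cd274 was 19.0 ± 8.75 CPM. With treatment 6 of 11 tested markers fell in that clone, beside 2.24% of all genes called lower. In 14559TN the marker sum was 30.7 to 97.3 CPM untreated and 70.3 to 126 CPM treated. In 13TN the sum was 57.5 to 95.9 CPM untreated and 26.8 to 84.1 CPM treated. All 15 of these markers had a count in some library. The sum of 6 erythroid markers, led by Hbb-bs, ran from 10.2 CPM in treated 13TN tumour 2 to 886 CPM in untreated 2646TN tumour 3. The part of such cells in the Cd274 and Lgals9 levels was not tested.

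The sum of 8 pan-leukocyte markers, mostly Arhgdib, was 334 to 372 CPM in untreated and 239 to 313 CPM in treated 14559TN. In 13TN it was 282 to 343 CPM and 253 to 276 CPM. Arhgdib alone held 208.7 to 461 CPM over all libraries, so the sum says little of the other markers. Among these, Ptprc went from 1.62 ± 2.54 to 2.61 ± 1.98 CPM in 14559TN (adjusted p = 0.721, edgeR). In 13TN it went from 0.981 ± 0.420 to 2.59 ± 1.51 CPM (0.381). The sum of 9 fibroblast markers, led by Col1a2, was 3786 to 4609.6 CPM in untreated and 8135 to 9197 CPM in treated 13TN. In 2646R it was 5920.0 to 7219 CPM untreated and 14400.2 to 16146 CPM treated. In 13TN 5 of the 9 rose, beside 13.6% of all genes that rose. In 2646R 3 of the 9 rose, beside 19.9% of all genes called in either direction. The sums of T, NK and B cell markers rested mostly on Trbc2, except in treated 14559TN and 13TN, and Cd3g, Ncr1, Ms4a1 and Cd79a had no count in any library. Of 5 tested dendritic cell markers 3 rose in 14559TN and 1 in 13TN, beside 12.4% and 13.6% of all genes that rose. The 13TN count lies near that share. The 5 were Zbtb46, Itgax, Fscn1, H2-Ab1 and H2-Aa, and Fscn1 held at least 290 CPM in every library. Flt3, Xcr1, Clec9a, Cd209a, Siglech and Ccr7 did not pass the filter, with at most 23 counts each over all libraries, so the calls say little of dendritic cells. The part of these markers in the results was not tested.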

How the data were processed

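Whole counts per gene from 3′ end (QuantSeq) libraries were deposited by the authors, 1 file per tumour. Per the submitters' processing notes and the file headers, reads were aligned with STAR 2.6.0c to GRCm38 and counted by strand with featureCounts 1.6.2. Groups were taken from the clone and treatment labels. In R 4.3.3, genes passing filterByExpr (13286) were fitted with edgeR 4.0.16 (TMM, quasi-likelihood with robust dispersion, 10 groups, 20 residual degrees of freedom), and p-values were adjusted by Benjamini-Hochberg over all tested genes within each of the comparisons. Standard errors are the log2 fold change over the root of F. Alternatives were median-of-ratios scaling, no filter, only the groups compared, DESeq2 1.42.0 and each of 30 libraries left out. The test was tried on simulated counts. The members and lists were chosen with earlier results of these data known. Named genes were the 8 members, the 3 genes most like each, up to 2 called list genes with the largest rise and 2 with the largest fall among those of at least 5 CPM, and Cmtm6, Irf1 and Ptprc, with 1 further gene of the rule not reported here; Cd80 was named after its values were seen. Counting intervals use exact Poisson limits of the lower count and cover its counting error only.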

Additional observations from a re-analysis of the deposited data

Results flagged for a closer look

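Differences between the responses of clones to RAFi/MEKi that passed edgeR's test of the difference itself, adjusted over all tested genes, are gathered here as values. Cd274 responded less by -3.05 log2 units in 14559R than in 14559TN and by -2.15 in 2646TN than in 14559TN. Pvr, which fell in 14559TN, differed by 1.34 in 14559R and by 1.18 in 2646TN from that clone. The Lgals9 response differed by -2.40 in 14559R from that of 14559TN. That call was lost with only the groups compared in the fit (adjusted p = 0.0501). It was also lost without any of several single libraries (up to 0.172), as given above. For Nectin2 the response of 2646TN was -1.11 against that of 14559TN, and the response of 2646R was 1.00 above that of 2646TN. Over all 5 clones, a difference among responses had an adjusted p of 0.00688 for Cd274, 0.000243 for Pvr and 0.0101 for Nectin2. Lgals9 did not pass that test. Calls of the other members that were lost in another fit are given above. Several of these differences share the 14559TN tumours.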

How the results depend on the processing

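Over 466 log2 values of the members recomputed under another scaling, no filter, only the groups compared or DESeq2, none changed sign; 449 stayed on the same side of the threshold, 5 lost the call and 12 gained it. With 1 library left out, 16 of 119 results had a value of another sign, none of them called in any fit. With no filter on low counts, the members called went from 1 to 2 in the 2646TN response, from 1 to 2 in untreated 14559TN against 13TN, from 1 to 2 in the response difference of 2646R and 2646TN, and from 3 to 5 for any difference among responses, which was also 5 by DESeq2. With only the groups compared, they went from 1 to 0 in 14559R, from 1 to 4 in untreated 14559TN against 13TN and from 3 to 1 in the response difference of 14559R and 14559TN. With 1 library left out, the members called ranged over 0 to 1 for the 2646TN response, 3 to 5 for 14559TN, 0 to 1 for 14559R and 3 to 6 for 13TN, and over 0 to 1 in untreated 14559TN against 13TN, 0 to 1 in the response difference of 2646R and 2646TN, and 3 to 5 for any difference among responses. The causes were not tested.

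Over all genes, the count of calls moved from 523 to 965 in 2646TN with no filter, and to 240 at the lowest with 1 library left out. With no filter 25894 genes were tested instead of 13286, so a higher count there need not be a higher share. In 14559R it moved from 26 to 319 with no filter, 3 with only the groups compared, 113 by DESeq2, and 4 to 84 with 1 library left out. In the response difference of 14559TN and 13TN it moved from 59 to 332, 188 and 154 under the same settings and to 29 at the lowest with 1 library left out. In the response difference of 2646R and 2646TN it moved from 551 to 977 with no filter and 352 to 831 with 1 library left out. With 1 library left out the lowest counts were 1239 of 2153 in untreated 2646TN against 13TN and 943 of 1486 in untreated 14559TN against 13TN. The low counts of Pdcd1lg2, and of Nt5e in 2646TN, limit what could be detected. No paired analysis was possible because each tumour has a code of its own and the labels give no shared replicate numbers.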

Other observations

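Trbc2, which encodes a constant region of the T cell receptor beta chain, held most of the counts of 18 T, NK and B cell markers in most groups. Its mean was 207 CPM in untreated and 189 CPM in treated 2646R, 21.4 and 17.6 CPM in 2646TN, and 32.1 and 67.9 CPM in 14559R. In 14559TN it was 39.0 CPM untreated and 1.44 CPM treated, and in 13TN 23.5 and 1.16 CPM. Those 2 clones are also the ones in which Cd274 rose. Of the other 17 markers none passed the low-count filter.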
